A study of Mus musculus with 12 samples.

Results

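RNA of 4 chemokines and 3 chemokine receptors was followed in mouse naïve CD8+ T cells cultured with or without anti-CD3 and with or without an agonistic antibody to LAIR-1, a collagen-binding inhibitory receptor of immune cells. The genes were chosen by name, with earlier results of these data known: the chemokines Ccl3, Ccl4, Ccl5 and Xcl1 and the receptors Cxcr3, Cxcr4 and Ccr9. They are 7 of the 14323 genes in the count table. Cells with a naïve surface phenotype (CD8+ and CD44- among other markers) were sorted out of wild type mouse spleens and plated at 100000 cells per well for 6 h on immobilized antibodies. There were 12 libraries, 1 for each of mice 1, 2 and 3 in each of 4 conditions. The unstimulated isotype condition had isotype control antibody only, and the unstimulated anti-LAIR-1 condition had anti-LAIR-1 (clone 2C7, at 2.5 µg/ml) beside isotype control. The anti-CD3 isotype condition had anti-CD3 (clone 145-2C11, at 2.5 µg/ml) beside isotype control, and the last condition, anti-CD3 anti-LAIR-1, had both antibodies. The comparison of anti-LAIR-1 with isotype among the stimulated cells addressed what LAIR-1 ligation changes in T cells responding to CD3. The unstimulated libraries, cultured for the same 6 h, give the level without anti-CD3. No library was made from cells before culture.

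Library totals ranged from 1781218 to 7725545 counts and differed between conditions. The median total was 2304214 counts without any active antibody, 3548881 with anti-LAIR-1 alone, 4883760 with anti-CD3 alone and 6204054 with both. On the counts-per-million scale (CPM), 3 counts correspond to 0.388 to 1.68. All 5 CD8 T cell identity genes looked for (Cd8a, Cd8b1, Cd3d, Cd3e and Cd3g) were found in every condition. Of 29 marker genes of other blood and spleen cell types (CD4 T cells, B cells, NK cells, macrophages and monocytes, dendritic cells, neutrophils, platelets and erythroid cells), 16 were in the count table, and their summed level was 6.19 to 16.7 CPM per library, with no single one above 6.41 CPM. Markers of the memory phenotype summed to 703 to 757 CPM in the 6 unstimulated libraries. Of these 11 genes Klrd1 made up most of the sum (454 CPM with isotype and 434 CPM with anti-LAIR-1 on average). Id2, Il2rb, Ctsw, Nkg7 and Eomes were also present, at 88.5, 79.1, 45.7, 43.8 and 36.1 CPM on average with isotype. In contrast, Cd44 was at 4.01 and 5.11 CPM, Tbx21, Ly6c2 and Klrk1 were below 1 CPM, and Il18rap had no count. Lair1 itself had too few counts to be compared.

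Chemokines are small secreted proteins that bind G protein-coupled receptors on leukocytes and direct their migration. An antigen-activated CD8+ T cell makes chemokines that draw in other cells: CCL3, CCL4 and CCL5 attract T cells and myeloid cells, and XCL1 is the ligand of XCR1, a receptor of the dendritic cells that cross-present antigen. The cell also changes its own receptors. CXCR3 binds CXCL9, CXCL10 and CXCL11 and takes effector cells to inflamed tissue, whereas CXCR4, the receptor of CXCL12, and CCR9, the receptor of CCL25, are usually counted as homing receptors of resting lymphocytes and developing thymocytes rather than as inflammatory ones.

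The stretches upstream of the start sites of Ccl3, Xcl1 and Cxcr4 are shown because these genes gave, respectively, the largest decrease under anti-LAIR-1 among the ligands, the smallest p-value in the response to anti-CD3, and changes in the opposite direction. Each runs over 240 bases, from 250 to 11 bases before the RefSeq start, on GRCm38.p6, and is written 5′ to 3′ on the gene's own strand, the minus strand for all 3: chr11:83649389-83649628 for Ccl3, chr1:164935533-164935772 for Xcl1 and chr1:128592310-128592549 for Cxcr4. Capitals mark GGAAA, the core bound by NFAT, or its reverse complement TTTCC.
Ccl3: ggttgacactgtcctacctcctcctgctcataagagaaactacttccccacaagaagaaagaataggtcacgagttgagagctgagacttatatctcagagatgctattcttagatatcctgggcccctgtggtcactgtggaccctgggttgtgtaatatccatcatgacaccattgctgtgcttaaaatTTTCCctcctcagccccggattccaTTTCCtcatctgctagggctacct
Xcl1: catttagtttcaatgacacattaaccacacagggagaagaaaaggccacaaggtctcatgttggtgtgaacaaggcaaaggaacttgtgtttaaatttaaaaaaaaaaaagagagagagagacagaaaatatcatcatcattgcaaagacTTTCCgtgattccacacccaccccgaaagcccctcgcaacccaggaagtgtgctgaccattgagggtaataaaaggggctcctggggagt
Cxcr4: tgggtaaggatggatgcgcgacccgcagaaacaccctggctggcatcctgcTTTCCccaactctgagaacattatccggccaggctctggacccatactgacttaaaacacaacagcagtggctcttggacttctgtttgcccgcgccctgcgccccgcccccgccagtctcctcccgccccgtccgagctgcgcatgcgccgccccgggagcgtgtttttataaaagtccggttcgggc
NFAT is the calcium-driven transcription factor of antigen receptor signalling. Its core occurred 2 times upstream of Ccl3, 1 time upstream of Xcl1 and 1 time upstream of Cxcr4, whereas 54.1% of the 32851 RefSeq windows of this length hold at least 1 match on either strand. The AP-1 motif TGANTCA (in 6.58% of windows), the NF-kB motif GGGANTTTC (0.895%) and the cAMP response element TGACGTCA (1.44%) had no match in the windows of Ccl3, Xcl1, Cxcr4, Cxcr3 or Ccr9, which were the 5 of the 7 genes matched. The T-box motif TCACACC (3.22% of windows) had 1 match upstream of Xcl1. CACCC, the core of KLF sites (50.6% of windows), had 2 matches upstream of Xcl1, which share 1 letter, 1 upstream of Cxcr4 and 1 upstream of Ccr9. No match says only that these letters are not in these windows.

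Anti-CD3 raised 3 of the 4 chemokines, Ccl3 and Ccl4 from under 20 CPM and Xcl1 from a higher level, to among the strongest responses in the data. Ccl3, Ccl4 and Xcl1 had log2 fold changes of 7.96 to 8.46 after 6 h, in cells with isotype control. Cxcr3 rose too, Cxcr4 and Ccr9 fell, and Ccl5 stayed near the floor. Thus 4 of the 7 genes rose and 2 fell (adjusted p under 0.05 in edgeR's quasi-likelihood test, Benjamini-Hochberg over the 8690 genes tested). Of these, Cxcr3 passed the filter on low counts only through the stimulated libraries. In the same comparison 35.2% of all tested genes rose and 36.1% fell, so that being called is common here, and the counts say little beside the sizes. In bulk RNA, more cells with a transcript and more RNA per cell cannot be told apart, here and below.

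**Figure D1:**
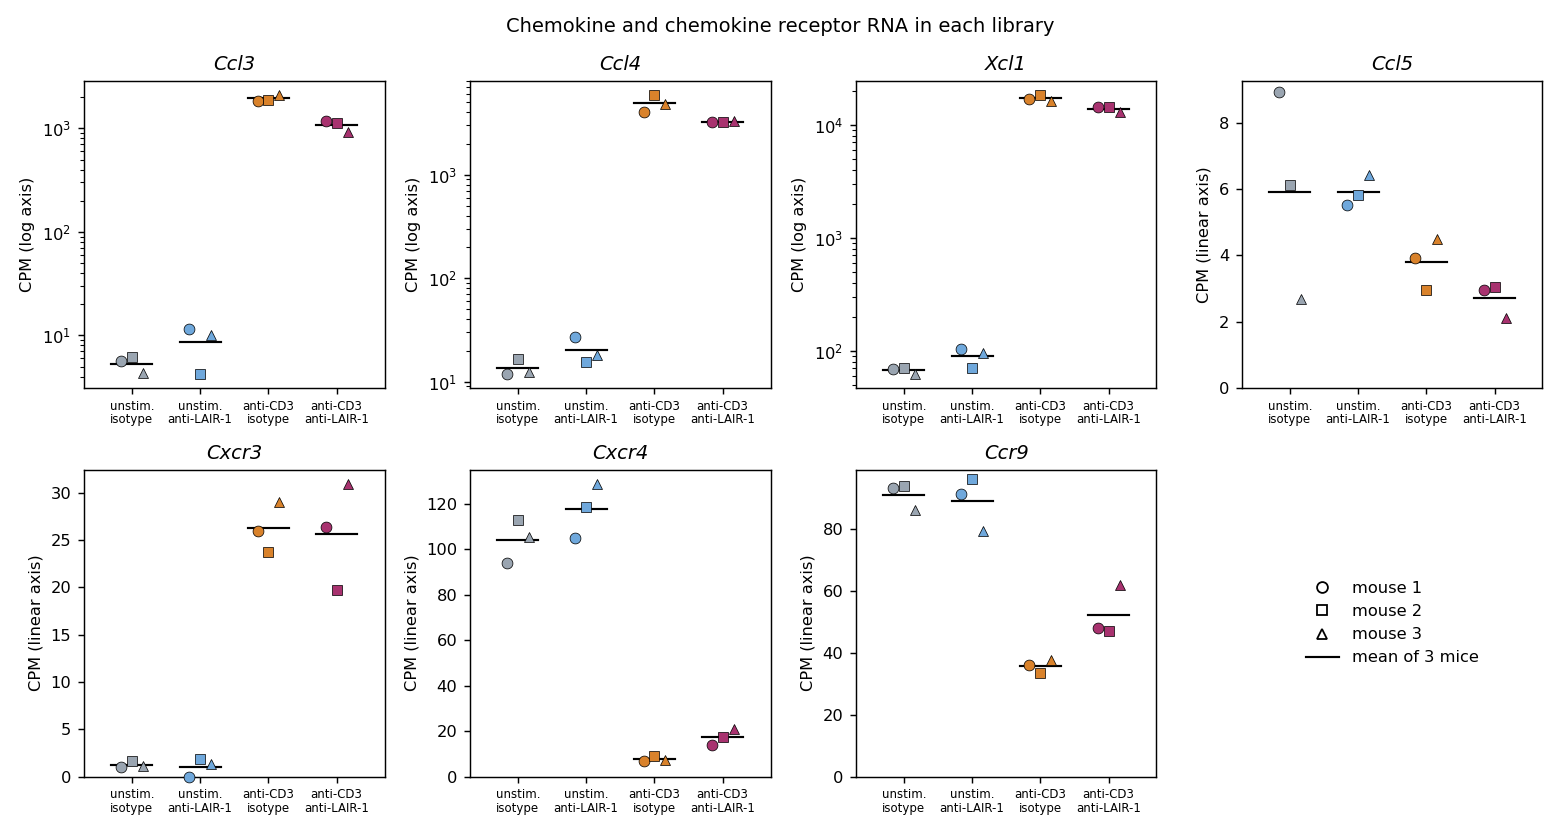
Level of each gene in each of the 12 libraries, in CPM (log axis for Ccl3, Ccl4 and Xcl1, linear axis from 0 for the others), by condition; symbols are mice 1 to 3 and bars are means. The 6 stimulated libraries sit far above the unstimulated ones for Ccl3, Ccl4, Xcl1 and Cxcr3 and below them for Cxcr4 and Ccr9, while Ccl5 is at most at 8.92 CPM.

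Ccl3 (MIP-1α; chr11:83647844-83649355, minus strand, GRCm38) was at 5.62, 6.11 and 4.31 CPM in unstimulated isotype libraries of mice 1, 2 and 3, and at 1850, 1879 and 2101 CPM with anti-CD3. The groups were far apart, and the log2 fold change was 8.44 ± 0.14 (SE; adjusted p = 8.0e-23), or 346-fold (95% CI 284 to 427). Ccl4 (MIP-1β), the next gene along the chromosome cluster at 13228 bases from Ccl3 and on the opposite strand (chr11:83662584-83664683), was at 11.9, 16.7 and 12.4 CPM without and 4060, 5891 and 4817 CPM with anti-CD3. Its log2 fold change was 8.46 ± 0.16 (adjusted p = 1.0e-21), 351-fold (279 to 445), and did not differ from that of Ccl3 beyond their intervals. Both neighbours rose from a low level. No stretch of 60 bases in the last 500 bases of either transcript is shared with another gene's transcripts, so that reads of the 3′ end can tell them apart.

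Xcl1 (lymphotactin; chr1:164931644-164935527, minus strand) was at 68.7, 70.9 and 62.4 CPM without and 16960, 18390 and 16340 CPM with anti-CD3. The log2 fold change was 7.96 ± 0.11 (adjusted p = 9.7e-25), 249-fold (213 to 290), and its p-value ranked 1 among the 8690 genes tested. By size of the log2 fold change Ccl4, Ccl3 and Xcl1 ranked 10, 11 and 15. Gm20743 lies over Xcl1 on the other strand, and the sources used here do not say whether counting used strand. Together the 3 chemokines took 0.00825 to 0.00998% of all counts in unstimulated isotype libraries and 2.18 to 2.53% in anti-CD3 isotype libraries.

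Ccl5 (RANTES; chr11:83525778-83530518, minus strand), a late product of effector and memory T cells, did not follow its relatives. It was at 8.92, 6.11 and 2.69 CPM without and 3.92, 2.96 and 4.50 CPM with anti-CD3, and the 2 groups overlapped. The log2 fold change of -0.73 (95% CI -1.57 to 0.09) missed the threshold (adjusted p = 0.10), although it passed it without the unstimulated isotype library of mouse 3 (-1.03, adjusted p = 0.025) and with upper quartile scaling (-0.91, adjusted p = 0.045). The upper end of the interval is a 1.06-fold increase. Ccl5 had only 5 to 28 counts per library, and its SE of 0.40 in this comparison was, with the 0.34 of Cxcr3, wider than that of the other 5 genes.

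Among the receptors, Cxcr3 (chrX:101731535-101734269, minus strand) was at 0.99, 1.63 and 1.08 CPM without anti-CD3, which is 3, 4 and 2 counts, and at 26.0, 23.7 and 29.1 CPM with it. It passed the filter on low counts only through the stimulated libraries. The log2 fold change was 4.35 ± 0.34 (adjusted p = 5.2e-11), 20.4-fold with a wide interval of 12.9 to 34.0. Cxcr4 (chr1:128588199-128592293, minus strand) went the other way, from 94.2, 112.9 and 105.5 CPM to 6.94, 8.89 and 7.23 CPM. The log2 fold change was -3.78 ± 0.16 (adjusted p = 1.2e-15) and ranked 152 from the bottom of the 8690 genes. After 6 h the Cxcr4 level with anti-CD3 was thus 13.8-fold lower than without it. Ccr9 (chr9:123678439-123784330, plus strand, a locus overlapped by Slc6a20a and Lztfl1 among others) fell from 93.5, 94.1 and 86.1 CPM to 36.2, 33.6 and 37.6 CPM, a log2 fold change of -1.39 ± 0.13 (adjusted p = 8.1e-10) or 2.61-fold. Neither receptor's groups overlapped.

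The response to anti-CD3 was measured again, in other libraries of the same mice, in the cells that also received anti-LAIR-1. Here 4 genes rose (36.4% of the 9000 genes tested did) and 3 fell (36.3%). Ccl3 went from 11.6, 4.24 and 10.2 CPM to 1182, 1129 and 913 CPM, a log2 fold change of 6.95 ± 0.18 or 124-fold. Ccl4 went from 27.1, 15.4 and 18.2 CPM to 3202, 3236 and 3327 CPM (7.33 ± 0.13, 161-fold), and Xcl1 from 103.5, 70.7 and 96.2 CPM to 14250, 14250 and 12950 CPM (7.26 ± 0.12, 153-fold). The 3 ligands ranked 5 (Ccl4), 6 (Xcl1) and 8 (Ccl3) of 9000 by log2 fold change. Cxcr3 rose from 0, 1.85 and 1.34 CPM (0, 7 and 5 counts) to 26.4, 19.7 and 30.9 CPM (4.53 ± 0.38). As with isotype, it passed the filter on low counts only through the stimulated libraries. Cxcr4 fell from 105.1, 118.7 and 129.0 CPM to 13.7, 17.4 and 21.2 CPM (-2.79 ± 0.14), and Ccr9 from 91.6, 96.2 and 79.4 CPM to 48.1, 47.2 and 62.0 CPM (-0.78 ± 0.12). All 6 had an adjusted p of at most 9.3e-06. Ccl5 fell as well, from 5.53, 5.83 and 6.41 CPM to 2.96, 3.04 and 2.12 CPM, a log2 fold change of -1.11 ± 0.32 (adjusted p = 0.0044) that DESeq2 with the mouse as a block did not call (-1.09, adjusted p = 0.11).

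**Figure D2:**
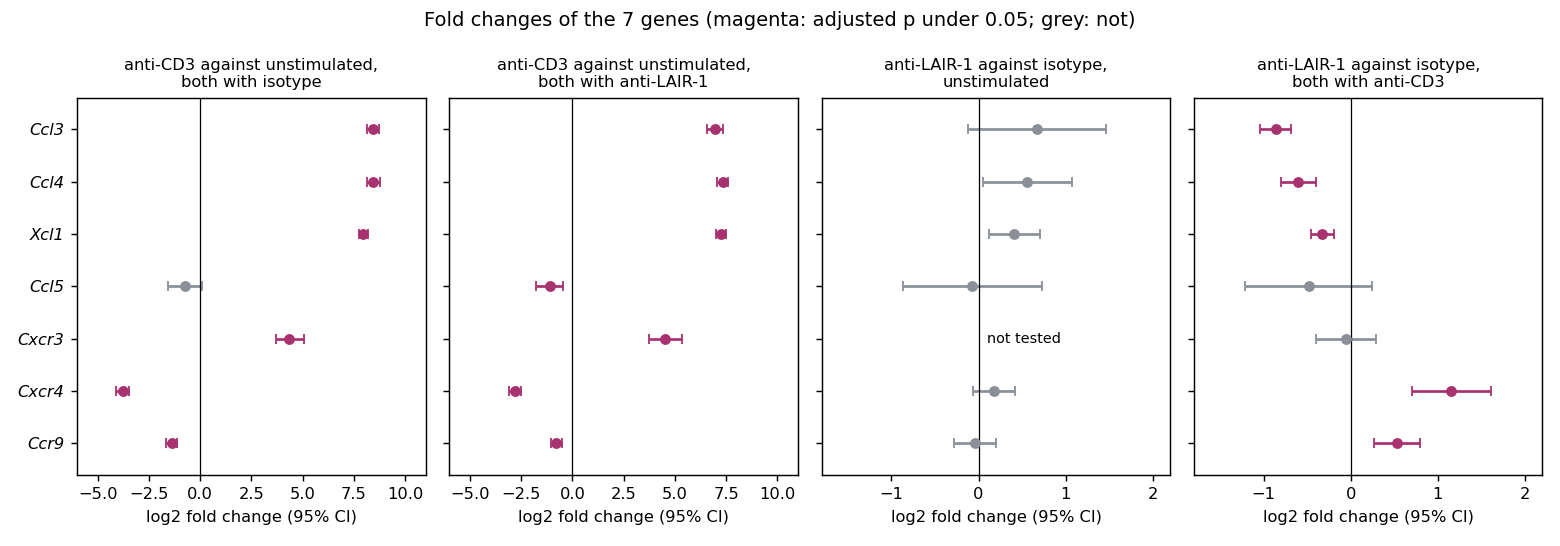
Log2 fold change of each gene with its 95% confidence interval in 4 comparisons (edgeR; magenta, adjusted p under 0.05; grey, not), each of 3 against 3 libraries; the 2 panels on the left have a wider axis than the 2 on the right. Ccl3, Ccl4 and Xcl1 lie between 7.96 and 8.46 for anti-CD3 with isotype, between 6.95 and 7.33 with anti-LAIR-1, and below 0 where anti-LAIR-1 is compared with isotype among stimulated cells, where Cxcr4 and Ccr9 lie above 0.

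Among stimulated cells, anti-LAIR-1 lowered the 3 induced chemokines and raised the 2 receptor transcripts that anti-CD3 reduces. Ccl3 fell most, by 45.0%, followed by Ccl4 at 34.2% and Xcl1 at 20.3%, while Cxcr4 was 2.22-fold and Ccr9 1.45-fold higher. Cxcr3, the receptor that anti-CD3 induced, and Ccl5 were not called. So 3 of the 7 genes fell, against 1.86% of the 8800 genes tested, and 2 rose, against 3.9% (edgeR, adjusted p under 0.05). This comparison shares its anti-CD3 isotype libraries with the one against unstimulated cells, so the 2 directions of a gene are not independent. Because the genes and lists were chosen with earlier results of these data known, the shares of all genes are background only, here and for the lists below.

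For Ccl3, the 1850, 1879 and 2101 CPM of the anti-CD3 isotype libraries stood against 1182, 1129 and 913 CPM with anti-LAIR-1, means of 1943 ± 138 and 1075 ± 143 (SD, n = 3). The groups were well separated, and the log2 fold change was -0.86 ± 0.08 (SE; adjusted p = 1.4e-05), number 6 of 8800 by p-value. By mouse the log2 difference was -0.65, -0.73 and -1.20. Ccl4 fell from 4922 ± 920 to 3255 ± 64.4 CPM, a log2 fold change of -0.60 ± 0.09 (adjusted p = 0.00081), and by -0.34, -0.86 and -0.53 in mice 1, 2 and 3. All 3 isotype libraries exceeded all 3 anti-LAIR-1 libraries, but the spread was unequal: the anti-LAIR-1 libraries were at 3202, 3236 and 3327 CPM and the isotype libraries at 4060, 5891 and 4817 CPM. DESeq2 with the mouse as a block did not call it (-0.60, adjusted p = 0.074). Xcl1 fell from 17230 ± 1051 to 13820 ± 752 CPM, a small change (-0.33 ± 0.06 on the log2 scale, adjusted p = 0.0050) that was alike in all mice (-0.25, -0.37 and -0.34).

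Of the ratios between the 3 ligands, only that of Xcl1 to Ccl3 was separate between the stimulated groups. There were 7.78 to 9.79 Xcl1 counts for each Ccl3 count in anti-CD3 isotype libraries and 12.1 to 14.2 in anti-CD3 anti-LAIR-1 libraries, with no overlap. Their means were 8.91 ± 1.03 and 13.0 ± 1.10 (SD, n = 3; p = 0.1 in an exact 2-sided permutation test, the smallest that 3 against 3 allows). Xcl1 per Ccl4 (3.12 to 4.18 against 3.89 to 4.45; exact permutation p = 0.2) and Ccl3 per Ccl4 (0.319 to 0.456 against 0.274 to 0.369; exact permutation p = 0.3) overlapped between the groups. Among unstimulated cells Xcl1 per Ccl3 was 11.6 to 14.5 with isotype and 8.90 to 16.7 with anti-LAIR-1, where Ccl3 had only 8 to 42 counts per library. The 3 chemokines together made up 1.66 to 1.79% of counts in stimulated cells with anti-LAIR-1, below the 2.18 to 2.53% with isotype (exact permutation p = 0.1).

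**Figure D3:**
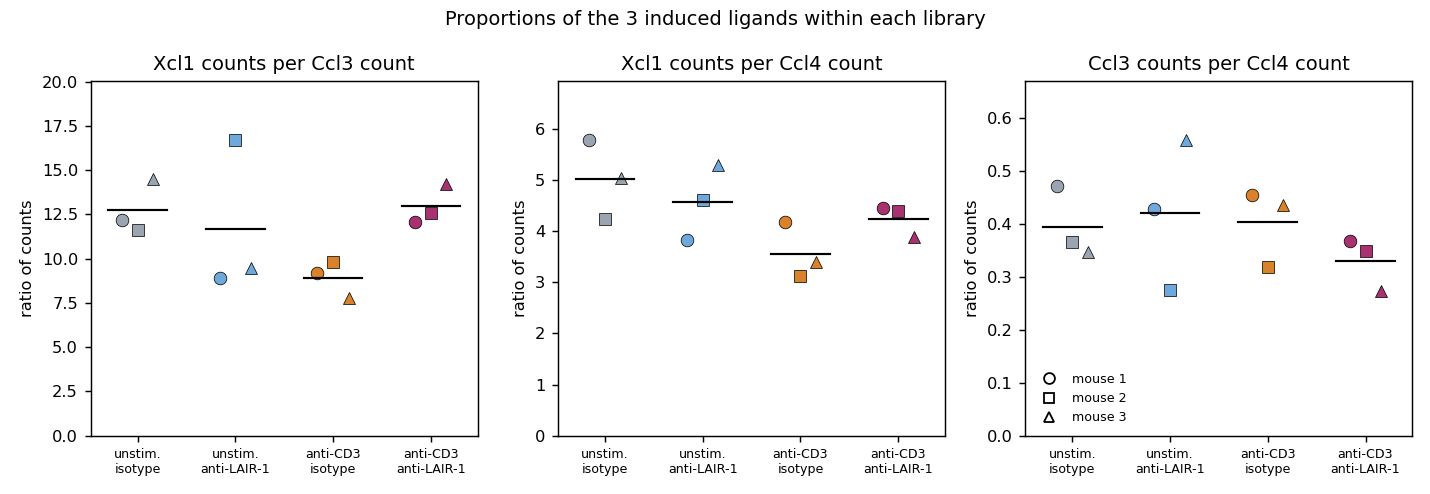
Ratio of counts between pairs of the 3 induced chemokines in each library, by condition (linear axes from 0; symbols are mice, bars are means of 3). Xcl1 per Ccl3 is at most 9.79 in the 3 anti-CD3 isotype libraries and at least 12.1 in the 3 anti-CD3 anti-LAIR-1 libraries, and the other 2 ratios overlap.

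On the receptor side, Cxcr4 rose with anti-LAIR-1 from 6.94, 8.89 and 7.23 CPM to 13.7, 17.4 and 21.2 CPM. No library of one group reached the other, and the log2 fold change was 1.15 ± 0.21 (adjusted p = 0.0034), with differences of 0.94, 0.93 and 1.49 by mouse. This remained far below the 94.2 to 129.0 CPM of the unstimulated cells. Ccr9 rose from 36.2, 33.6 and 37.6 CPM to 48.1, 47.2 and 62.0 CPM, a log2 fold change of 0.53 ± 0.13 (adjusted p = 0.017), again higher in 3 of 3 mice (0.40, 0.48 and 0.71). The Ccr9 call was the least secure of the 5: it was lost without the anti-CD3 isotype library of mouse 2 (0.48, adjusted p = 0.078), without the anti-CD3 anti-LAIR-1 library of mouse 3 (0.40, adjusted p = 0.085), and in DESeq2 with the mouse as a block (0.53, adjusted p = 0.12). Cxcr3 was at 26.0, 23.7 and 29.1 CPM against 26.4, 19.7 and 30.9 CPM, overlapping groups with a log2 difference of -0.05 and an interval of -0.40 to 0.29 (0.76-fold to 1.22-fold). For Ccl5 the interval ran from -1.21 to 0.24.

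Other features of these libraries moved with the same contrast. Lef1 and Tcf7, transcription factors of naïve T cells, were higher with anti-LAIR-1 among stimulated cells, Lef1 at 105.4 ± 9.62 CPM with isotype and 169.1 ± 7.81 CPM with anti-LAIR-1 (log2 fold change 0.67 ± 0.09, adjusted p = 0.00011) and Tcf7 at 23.8 ± 1.28 and 37.3 ± 3.59 CPM (0.63 ± 0.13, adjusted p = 0.0072). The 5 CD8 T cell identity genes summed to 1339 to 1423 CPM with isotype and 1695 to 1896 CPM with anti-LAIR-1. Among memory markers, Nkg7 was lower (169.6 against 105.8 CPM) and Klrd1 higher (79.5 against 143.3 CPM). Library totals of the stimulated groups overlapped, at 3478294 to 6555730 counts with isotype and 4889990 to 7725545 with anti-LAIR-1. With every library thinned to the smallest total the 5 genes were called as before. The markers' part in the chemokine results was not tested.

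Without anti-CD3, anti-LAIR-1 changed none of the 7 genes by the test. None of the 8770 genes tested with edgeR was called in this comparison (0%), and 384 had an unadjusted p under 0.05. DESeq2 called none of 13259 genes, of which 198 had an unadjusted p under 0.05. The same 3 chemokines nevertheless had higher means with anti-LAIR-1: 8.67 ± 3.91 against 5.35 ± 0.93 CPM for Ccl3, 20.2 ± 6.14 against 13.7 ± 2.65 CPM for Ccl4, and 90.1 ± 17.2 against 67.4 ± 4.40 CPM for Xcl1 (SD, n = 3). Their groups overlapped, with mice 1 and 3 higher and mouse 2 not. The log2 differences were 0.67 (95% CI -0.12 to 1.46), 0.56 (0.05 to 1.07) and 0.41 (0.12 to 0.70), each with an adjusted p of 0.997. Cxcr4 differed by 0.18 (-0.06 to 0.42), Ccr9 by -0.04 (-0.29 to 0.20) and Ccl5 by -0.07 (-0.87 to 0.72), and Cxcr3 was too low to be tested.

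Whether anti-LAIR-1 acted differently with and without anti-CD3 was tested in 1 fit over all 12 libraries, as the interaction of both antibodies. Of the 9223 genes tested 0.249% had a lower and 1.82% a higher effect with anti-CD3. Ccl3, Ccl4 and Xcl1 were among the former, with differences in log2 effect of -1.52 ± 0.33 (SE; adjusted p = 0.011), -1.16 ± 0.25 (adjusted p = 0.0092) and -0.73 ± 0.14 (adjusted p = 0.0030). Cxcr4 was among the latter at 0.97 ± 0.23 (adjusted p = 0.019), and Ccr9 at 0.58 ± 0.17 missed the threshold (adjusted p = 0.081). These values add the higher unstimulated means to the lower stimulated ones, so that the low counts of the unstimulated libraries enter them. Only Xcl1 was called whichever of the 12 libraries was left out. Ccl3 was lost without the unstimulated anti-LAIR-1 library of mouse 1 (-1.25, adjusted p = 0.087) or of mouse 3 (-1.38, adjusted p = 0.061). Ccl4 was lost without the unstimulated mouse 1 library with isotype (-1.04, adjusted p = 0.053) or with anti-LAIR-1 (-0.90, adjusted p = 0.068). Cxcr4 was lost when any of 5 libraries was left out: unstimulated isotype of mouse 2 (0.90, adjusted p = 0.054), unstimulated anti-LAIR-1 of mouse 1 (0.89, adjusted p = 0.055), anti-CD3 isotype of mouse 1 (0.92, adjusted p = 0.063) or of mouse 3 (0.91, adjusted p = 0.084), and anti-CD3 anti-LAIR-1 of mouse 3 (0.82, adjusted p = 0.084).

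**Figure D4:**
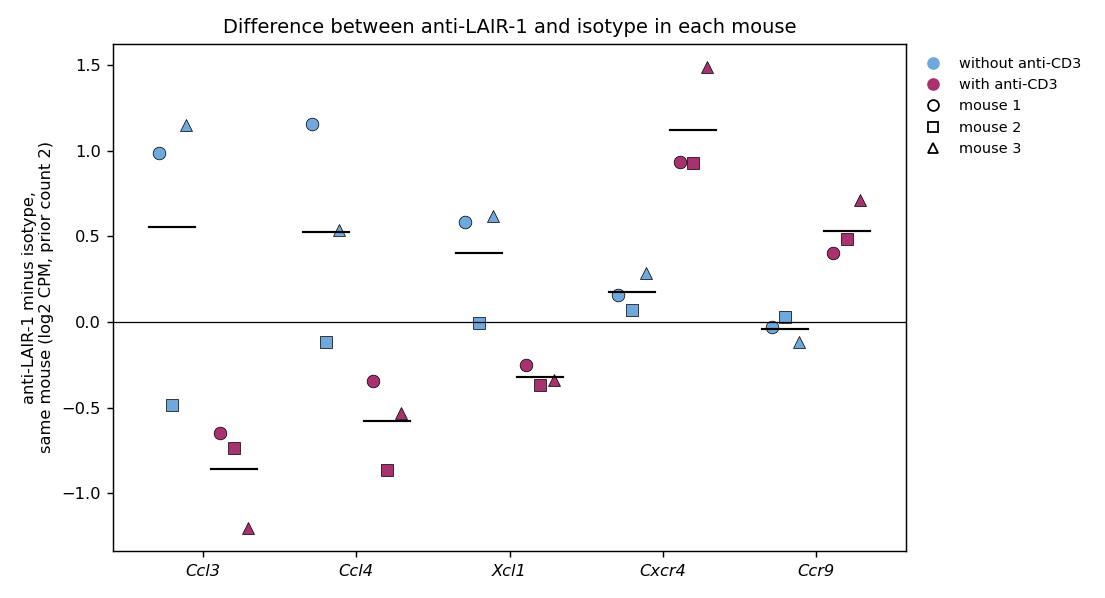
Log2 difference in CPM between anti-LAIR-1 and isotype for each mouse, without anti-CD3 (blue) and with anti-CD3 (magenta), for the 5 genes called among stimulated cells; bars are means of 3 mice and the line marks 0. With anti-CD3 all 3 mice lie below 0 for the chemokines and above 0 for the receptors, and without it mouse 2 departs from mice 1 and 3 for Ccl3, Ccl4 and Xcl1.

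The genes whose log2 CPM followed each of the 7 most closely over the 12 libraries were listed as a description, since all points share the same libraries and the main split is anti-CD3. For Xcl1 they were Ccl4, Tomm20 and Rsl1d1, for Ccl4 they were Xcl1, Tomm20 and Ndufaf4, and for Ccl3 they were Llph, Rwdd1 and Ccl4, all with Pearson r of 0.997 to 0.999. Cxcr4 was most like Capns1, Hmha1 and Gramd1a (r of 0.997 to 0.998), Ccr9 like Tram1, Lonp2 and Fxyd5 (0.989 to 0.992), and Cxcr3 like BC003965, Cst7 and Ppp1r11 (0.986 to 0.991). The closest genes to Ccl5 (Zfp110, 9930021J03Rik and 4930528D03Rik) reached only 0.877 to 0.911. Thus 2 of the 3 induced chemokines had another of them as the nearest gene of 9222.

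Little of the remaining chemokine family was present. Of 33 other chemokines listed, 18 were in the table and only Ccl9, Cxcl10 and Ccl25 had enough counts to be tested in any comparison. Ccl9, a ligand of CCR1, had 1 count in each unstimulated isotype library and 107, 166 and 238 counts with anti-CD3, a ratio of 80.4 after division by library totals (95% CI 27.4 to 391, counting error only). With anti-LAIR-1 it was at 23.6, 18.1 and 10.6 CPM against 32.3, 35.1 and 38.2 CPM in stimulated cells, a log2 fold change of -0.996 ± 0.197 (adjusted p = 0.0052). It thus fell like Ccl3 and Ccl4. Cxcl10, a ligand of CXCR3, rose with anti-CD3 (0.93 to 11.6 CPM on average; 3.37 ± 0.49, adjusted p = 1.4e-06). It had 6, 2 and 0 counts in the unstimulated isotype libraries and passed the filter on low counts only through the stimulated ones. In stimulated cells it did not fall with anti-LAIR-1, where the means were 11.6 ± 2.73 and 16.8 ± 1.97 CPM (0.50 ± 0.20, adjusted p = 0.16).

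Few of the remaining chemokine receptors were measured. Of 20 others listed, 13 were in the table and 3 were tested, and Xcr1, the receptor of XCL1, had at most 10 counts in any library. Among those 3, Ccr7, the lymph node homing receptor, fell with anti-CD3 from 300.2 ± 34.7 to 177 ± 34.3 CPM (log2 fold change -0.79 ± 0.12, adjusted p = 3.6e-06), and Cxcr6, the receptor of CXCL16, rose from 48.5 ± 9.63 to 98.6 ± 3.84 CPM (1.00 ± 0.13, adjusted p = 5.1e-07). Neither was called for anti-LAIR-1 in stimulated cells: Ccr7 was at 177 and 155 CPM (-0.21 ± 0.11, adjusted p = 0.34) and Cxcr6 at 98.6 and 116 CPM (0.22 ± 0.08, adjusted p = 0.14). Cxcr4 and Ccr9 were thus the only receptors of those tested that were called in this comparison. Ccr7, which anti-CD3 also lowers, was not higher with anti-LAIR-1.

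Genes that carry the signal from chemokine receptors to the cytoskeleton fell more often than they rose with anti-CD3. Of 22 listed, 20 were tested with isotype, 12 fell and 2 (Elmo1 and Rap1a) rose, where 36.1% of all tested genes fell and 35.2% rose, and the median log2 fold change was -0.51 beside -0.026 over all genes. With anti-LAIR-1 in stimulated cells 5 of 22 rose and 0 fell (3.9% and 1.86% of all tested genes; median 0.19 beside 0.0047): Coro1a, an actin regulator, Rac2, the haematopoietic Rac GTPase, its exchange factor Dock2, the inhibitory G protein subunit Gnai2, and the phospholipase Plcb2. Rac2 went from 743 ± 50.3 CPM in unstimulated isotype cells to 107 ± 4.32 with anti-CD3 alone and 188 ± 17.2 with both antibodies (log2 fold change between the last 2 of 0.80 ± 0.09, adjusted p = 3.5e-05). Coro1a was at 536 ± 43.8, 142 ± 11.7 and 235 ± 7.57 CPM in the same order (0.72 ± 0.08, adjusted p = 3.5e-05), and Dock2 at 235 ± 33.2, 29.6 ± 3.23 and 48.5 ± 9.15 CPM (0.70 ± 0.15, adjusted p = 0.0079). Each was intermediate with both antibodies, like Cxcr4 and Ccr9. Gnai2 (0.45 ± 0.09, adjusted p = 0.0066) and Plcb2 (1.19 ± 0.30, adjusted p = 0.026), the latter from 3.08 to 7.11 CPM, completed the group. In the interaction Rac2, Coro1a, Dock2 and Gnai2 were called higher (0.90, 0.67, 0.83 and 0.52, with adjusted p of 5.0e-05, 0.0021, 0.015 and 0.0496).

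Of 15 genes that desensitise or sulphate chemokine receptors or speed up G protein turnover (GRKs, arrestins, RGS proteins and tyrosylprotein sulphotransferases), 13 were tested for anti-CD3 with isotype, 4 rose and 8 fell (35.2% and 36.1% of all tested genes; median -0.89 beside -0.026). Rgs16 and Rgs1, activation-induced inhibitors of G protein signalling, rose, Rgs16 from 6.93 ± 4.33 to 519 ± 31.0 CPM (6.29 ± 0.18, adjusted p = 1.7e-18) and Rgs1 from 3.60 ± 0.73 to 34.3 ± 2.17 CPM (3.23 ± 0.25, adjusted p = 7.1e-11). Rgs1 and Tpst1, another of the 4 that rose, had 11, 7 and 8 counts and 16, 3 and 4 counts in the unstimulated isotype libraries. Neither would have passed the filter on low counts without the stimulated libraries. The arrestins Arrb1 and Arrb2 and the kinases Adrbk1 (GRK2) and Grk6 fell. With anti-LAIR-1 in stimulated cells 4 of 12 rose and 0 fell (3.9% and 1.86% of all tested genes; median 0.17 beside 0.0047): Rgs10 (34.2 against 61.1 CPM; 0.83 ± 0.14, adjusted p = 0.0018), Grk6 (0.42 ± 0.08, adjusted p = 0.0040), Arrb2 (0.58 ± 0.14, adjusted p = 0.018) and Adrbk1 (0.32 ± 0.09, adjusted p = 0.042). Rgs16 was at 543 ± 46.1 CPM with anti-LAIR-1, with a log2 difference of 0.06 ± 0.08 (adjusted p = 0.76). Rgs1 was at 34.3 ± 2.17 CPM with isotype and 25.8 ± 3.34 CPM with anti-LAIR-1 (-0.43 ± 0.14), which missed the threshold (adjusted p = 0.078). Rgs10 was also called in the interaction (0.93 ± 0.18, adjusted p = 0.0036). These 5 interaction calls over the 4 lists became 3 without the mouse 2 library of the unstimulated isotype condition, the mouse 3 library of the unstimulated anti-LAIR-1 condition or the mouse 3 library with both antibodies.

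**Figure D5:**
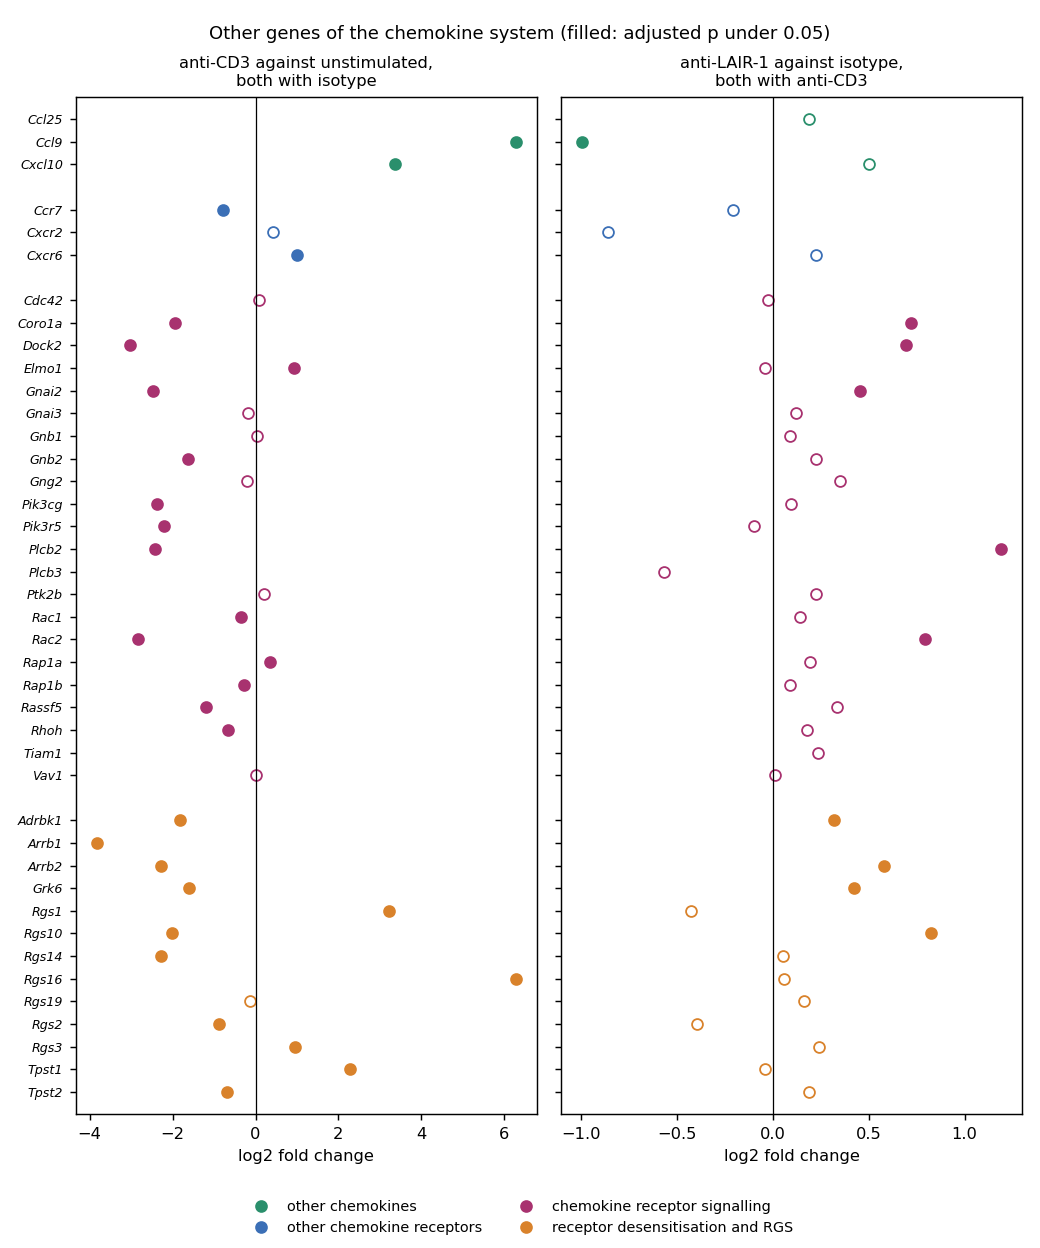
Log2 fold change of each tested gene of 4 lists (other chemokines, other chemokine receptors, receptor signalling, receptor desensitisation and RGS) for anti-CD3 against unstimulated with isotype (left) and for anti-LAIR-1 against isotype among stimulated cells (right, narrower axis); filled points have an adjusted p under 0.05. Of the filled points on the right, Ccl9 lies below 0 and the other 9 above it.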

How the data were processed

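The 7 genes and the gene lists were chosen with earlier results of these data known. Libraries were made by an adapted CEL-seq protocol, which reads the 3′ ends of transcripts, and sequenced on a NextSeq instrument. The authors aligned read 2 to the mm10 transcriptome with BWA MEM, discarded reads that mapped equally well to several places and counted the rest per gene. The deposited values are raw read counts. Whether reads of the same molecular identifier were collapsed is not given in the sources used here. The floors and the interval of the Ccl9 ratio cover counting error only. The SE and intervals of the fold changes come from the edgeR fit, which also estimates the spread between libraries. Non-coding genes were kept.

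Counts were analysed in R 4.3.3 with edgeR 4.0.16 (TMM scaling, filterByExpr by group, quasi-likelihood test on the groups compared, Benjamini-Hochberg over all genes tested, threshold 0.05). A fold change is the model's, CPM are TMM-scaled over the 12 libraries, and differences by mouse are of log2 CPM with a prior count of 2. Columns of the count table were tied to libraries by the mouse and treatment codes in their names. Named genes were the 7, list genes called in a comparison, defining markers, and for each of the 7 the 3 genes with the highest Pearson r. The labels number mice 1 to 3 in every condition, and the same number is taken to be the same mouse. Deviations from the condition means correlated at r = 0.043 on average (-0.007 to 0.088, 18 pairs) for libraries of the same mouse and -0.022 for different mice. No 2 libraries of the same condition agreed within sampling noise, and pairs from different conditions were not compared in this way. Alternatives were DESeq2 1.42.0, 2 other scalings, 2 other filters, the mouse as a block, thinning to the smallest total, 1 fit of all 12 libraries and leaving out each library. The scripts were tested on simulated data in which only genes above a minimum mean count were changed. Recovery of changes in genes near the floor was thus not covered. Positions are from GENCODE M21 (GRCm38) and upstream sequences from RefSeq (GRCm38.p6). Some genes of the marker and receptor lists are not reported here.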

Additional observations from a re-analysis of the deposited data

Results flagged for a closer look

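For 4 of the 7 genes the effect of anti-LAIR-1 with anti-CD3 differed from that without it by the interaction test over the 12 libraries. The difference in log2 effect was -1.52 for Ccl3, -1.16 for Ccl4, -0.73 for Xcl1 and 0.97 for Cxcr4. For the 3 chemokines it joins a decrease among stimulated cells, called in each case, to a higher mean among unstimulated cells, which was not called for any of them and rested on mice 1 and 3. No explanation was tested.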

How the results depend on the processing

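Over the 7 genes, 5 comparisons and all alternatives, 504 of 531 values kept their direction and their side of the threshold, 14 lost the call, 2 gained one and 11 changed sign, none of the last being called. The mouse as a block in edgeR changed no call of the 7 genes. In DESeq2 the block left 3 of the 7 genes called for anti-LAIR-1 in stimulated cells instead of 5 (Ccl4 and Ccr9 lost) and 212 of all genes instead of 507 (411 in DESeq2 without it), and it turned Ccl5 in unstimulated cells to 0.088. Thinning gave 324 of all genes, and turned Cxcr3 in stimulated cells to 0.011, Cxcr3 in the interaction to -0.17 and Ccl5 in unstimulated cells to 0.21. A fit of all 12 libraries called 391 higher and 99 lower in stimulated cells, instead of 343 and 164. Without a filter 5 genes, and not 0, were called for anti-LAIR-1 in unstimulated cells. The cause of these shifts was not tested.

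Leaving out each library in turn gave 293 to 427 genes called for anti-LAIR-1 in stimulated cells and 0 to 1 in unstimulated cells. In the interaction it gave 104 to 186 of all genes instead of 191, 1 to 4 of the 7 genes and 3 to 6 genes of the other lists instead of 5. Fewer samples enter each of these fits. Ranges that crossed 0 were -0.19 to 0.10 for Cxcr3 in stimulated cells, -0.36 to 0.37 for Ccl5 and -0.10 to 0.032 for Ccr9 in unstimulated cells, and -0.42 to 0.78 for Cxcr3 in the interaction. Upper quartile scaling moved the median of all genes in the response to anti-CD3 from -0.026 to -0.20 with isotype and from -0.035 to -0.24 with anti-LAIR-1, and no direction of the 7 genes with it. With at least 10 counts in every library, genes under that minimum (Cxcr3 in unstimulated libraries, Ccl3 and Ccl5 in some) gave no value, and thinning left Ccl5 without one in 2 comparisons. For the interaction DESeq2 gave no adjusted p for Ccl5 and, with the block, none for Cxcr3. Of the 21 nearest genes 18 were the same with a prior count of 0.5. Depth limits Ccl5, Cxcr3 and the unstimulated values of Ccl3 and Ccl4.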

Other observations

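Ccl1, a chemokine of activated T cells that binds CCR8, had 0 counts in all 6 unstimulated libraries. It had 9, 6 and 8 counts in the anti-CD3 isotype libraries of mice 1, 2 and 3 and 4, 2 and 5 counts with anti-LAIR-1, or 1.76 ± 0.83 and 0.64 ± 0.37 CPM (SD, n = 3). In CPM the 2 stimulated groups were only just apart, at no less than 1.27 with isotype and no more than 1.06 with anti-LAIR-1. These counts were too low to be tested.

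Cxcr2, a receptor better known from neutrophils, was at 2.51 ± 1.22 CPM in unstimulated isotype cells and 3.84 ± 1.41 CPM with anti-LAIR-1, and at 3.29 ± 0.54 and 1.71 ± 0.80 CPM in the stimulated pair. It was not called in any comparison except anti-CD3 against unstimulated with anti-LAIR-1 (log2 fold change -1.10, adjusted p = 0.029, edgeR). Ccl25, the ligand of CCR9, had 2 to 18 counts per library.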
